A study of Mus musculus with 8 samples.

Results

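The comparison set small intestine of mice that received FGF1 and 8 Gy of carbon ions against small intestine of mice that received saline and no irradiation. Its members were the 2 arrays labelled FGF1 with 8 Gy and the 2 arrays labelled 0 Gy, 4 of the 8 arrays in the series. The other 4 arrays were 2 each of FGF1/CPP-C with 8 Gy and of saline with 8 Gy. All mice were female BALB/cA Jcl animals aged 8 weeks, injected intraperitoneally with saline, with FGF1 or with FGF1/CPP-C, an FGF1-based chimera, and tissue was taken at 4 h. The design text gives 12 h of pretreatment and names the segment as jejunum, whereas the labels name only small intestine. No group received FGF1 without irradiation, so within this contrast FGF1 and dose cannot be told apart. The dose is the same in the comparison of FGF1 with saline at 8 Gy, given after the gene groups.

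FGF1, fibroblast growth factor 1, binds FGF receptors on the cell surface and signals through the kinases MEK and ERK, whose target genes include ETS transcription factors and feedback inhibitors such as the Dusp phosphatases and Sprouty proteins. Carbon ions are a particle beam used in radiotherapy that breaks DNA densely along each track. In the small intestine the dividing cells of the crypts are the most radiosensitive, and broken DNA stabilises the transcription factor p53, which switches on genes of cell cycle arrest, feedback and death. Genes of mitosis are switched off in the same response, through repressor complexes that bind CHR elements in their promoters.

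Signals were read on 1-colour arrays, and all levels below are log2 signals relative to the 75th percentile of the array. That percentile was 1735 to 2165 intensity units over the 8 arrays, and well above background lay 68.2% to 72.5% of spots. Across genes, which are not independent replicates, r between both arrays of one group was 0.982 to 0.994. Absorptive enterocyte markers of the labelled tissue were bright, with a median level of 5.10 and 5.57 on the FGF1 plus 8 Gy arrays and 5.06 and 5.44 on the 0 Gy saline arrays. The median level of stomach antrum markers was high on replicate 1 and low on replicate 2 of both groups. It was 0.02 and -4.75 after FGF1 and 8 Gy and 0.77 and -3.99 at 0 Gy. List levels in this paragraph include dim genes with a probe. Summed linear levels of antrum markers were high on replicate 2 too, at 1029 and 437 after FGF1 and 8 Gy and 1156 and 813 at 0 Gy. On the FGF1/CPP-C arrays these sums were 1.1 and 0.9. Replicate 2 of saline with 8 Gy was the third array with a high antrum median, 1.95. Arrays with high antrum transcripts are named below by this median. Pancreatic acinar genes stood apart on 1 array of the contrast, with summed linear levels of 10.9 and 10.6 after FGF1 and 8 Gy and 1115 and 11 at 0 Gy, where replicate 1 held the high value. Their sum was also high, at 236, on replicate 2 of saline with 8 Gy. Amy2a5, pancreatic amylase, was at the floor of -6.95 on both FGF1 arrays and at 7.70 and -5.94 on the 0 Gy arrays. The part of these transcripts in the results was not tested. Slide 1 carried all arrays numbered replicate 1 and slide 2 all those numbered replicate 2, each with 1 scan time, so both groups were present on both slides.

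**Figure D1:**
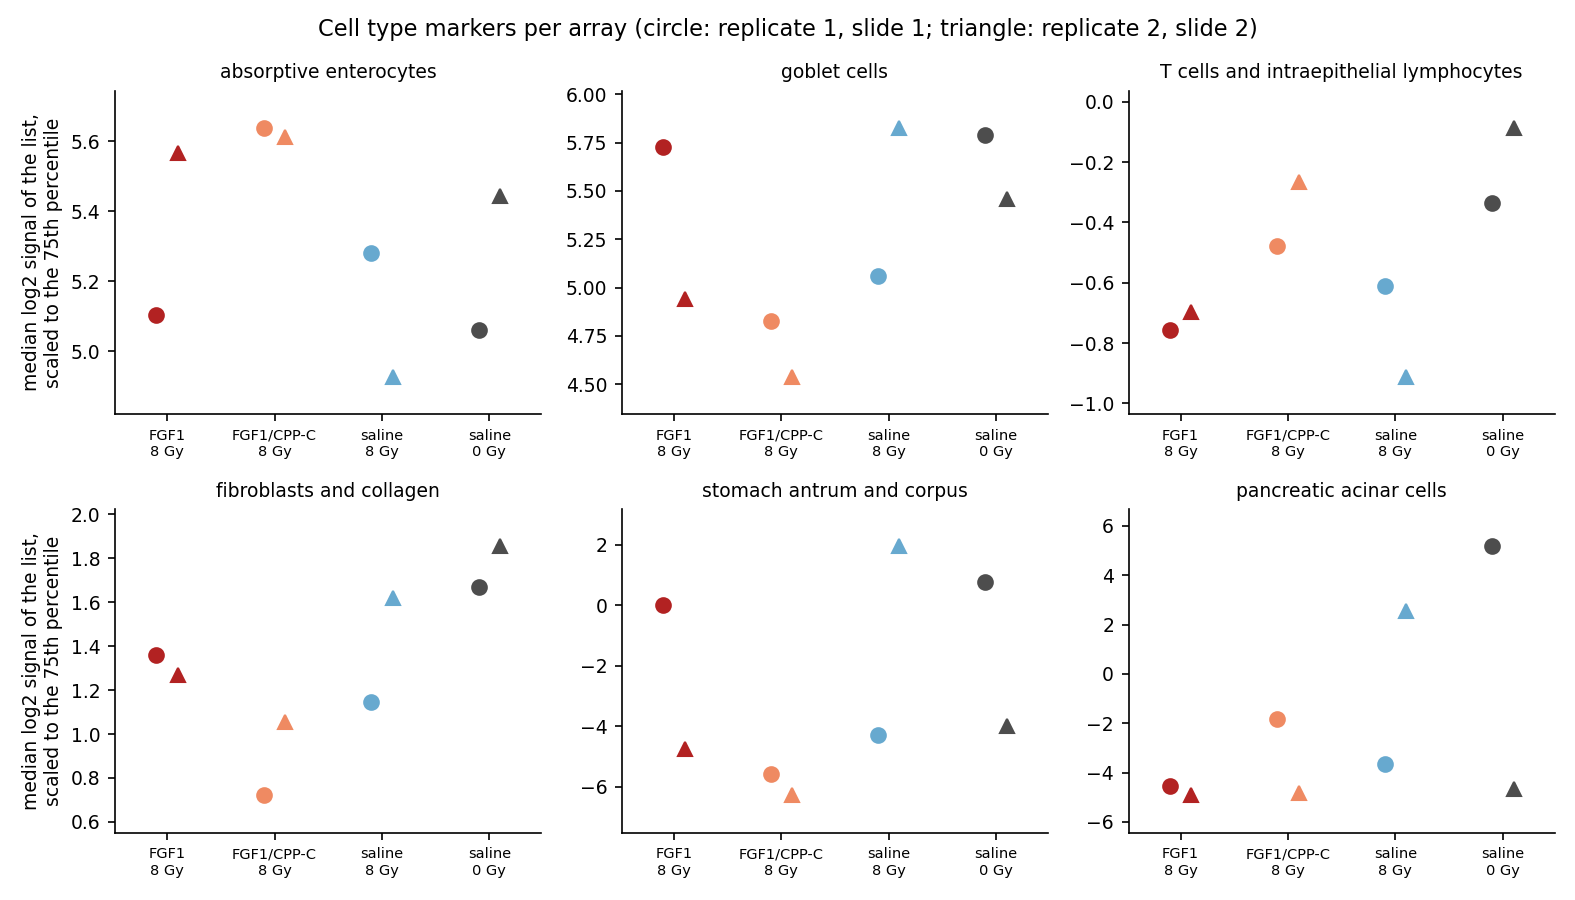
Median log2 signal of 6 marker lists on each of the 8 arrays, scaled to the 75th percentile of the array, with groups along the horizontal axis. Every listed gene with a probe is included, also genes too dim to count as measured. Circles are replicate 1 on slide 1 and triangles replicate 2 on slide 2. The antrum median is high on replicate 1 of FGF1 with 8 Gy, replicate 2 of saline with 8 Gy and replicate 1 of saline with 0 Gy. Acinar genes are high on the same saline arrays and on neither FGF1 array.

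Against 0 Gy saline, the FGF1 plus 8 Gy arrays carried more transcript of p53 target genes and less of mitosis genes. Of 21744 genes tested, 195 passed an adjusted p under 0.05 in limma, or 0.897%, with 133 higher (0.612%) and 62 lower (0.285%). The shares higher and lower are the background for every list count of this contrast below. Gdf15, a stress cytokine, had the largest rise, 52.0-fold. Among the genes that passed, 94 were at least 2-fold higher and 37 at least 2-fold lower. The 195 held 20 members of the p53 target lists, all higher, and 14 mitosis genes, all lower. Every one of the 195 had groups that did not overlap and the same direction on both slides. Of all genes, 22.9% did not overlap and were higher, and 28.1% did not overlap and were lower. The 195 were chosen by p on these same arrays, so their separation is no independent support. Over all genes the median log2 fold change was -0.05, -0.03 on slide 1 and -0.05 on slide 2, and 42.5% of genes were positive. The arrays measure bulk tissue, in which fewer cells of a type and less RNA per cell cannot be told apart. Nothing in the labels ties the 2 arrays of a group to different mice, and the p-values therefore measure spread between arrays, which may not be spread between mice. That spread includes unlike tissue content, as in the summed acinar levels of 1115 and 11 on the 0 Gy arrays. Background correction by normexp gave a more even split, 161 higher and 150 lower.

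A fit that held the slide as a block passed 81 genes (0.373%), 77 of them among the 195. The adjusted threshold rested on all 4 arrays of the contrast. Without FGF1 plus 8 Gy replicate 1, without 0 Gy saline replicate 1 or without 0 Gy saline replicate 2, 0 genes passed. The unadjusted p under 0.05 then numbered 2570, 2533 and 2182 genes, and 3618 with all arrays. Leaving out FGF1 plus 8 Gy replicate 2 left 1 gene, Gm4466, an unnamed locus, with 2094 genes at an unadjusted p under 0.05. Leaving out the 3 arrays with high antrum transcripts, a setting added once the levels were known, also gave 0 genes, with 2731 at an unadjusted p under 0.05. Every list described below held 0 genes past the threshold in each of these settings, since Gm4466 is a member of none. Leaving out either FGF1/CPP-C array gave 39 genes in all, 8 of them p53 targets and 3 of them mitosis genes. With the 2 groups of the contrast fitted alone, 5 genes passed. Of these, 3 were p53 targets of arrest and feedback, 0 were p53 targets of cell death and 0 were mitosis genes. All 195 genes kept their direction in every fit that left out 1 array. These fits reuse arrays that chose the 195, so this is no independent check.

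**Figure D2:**
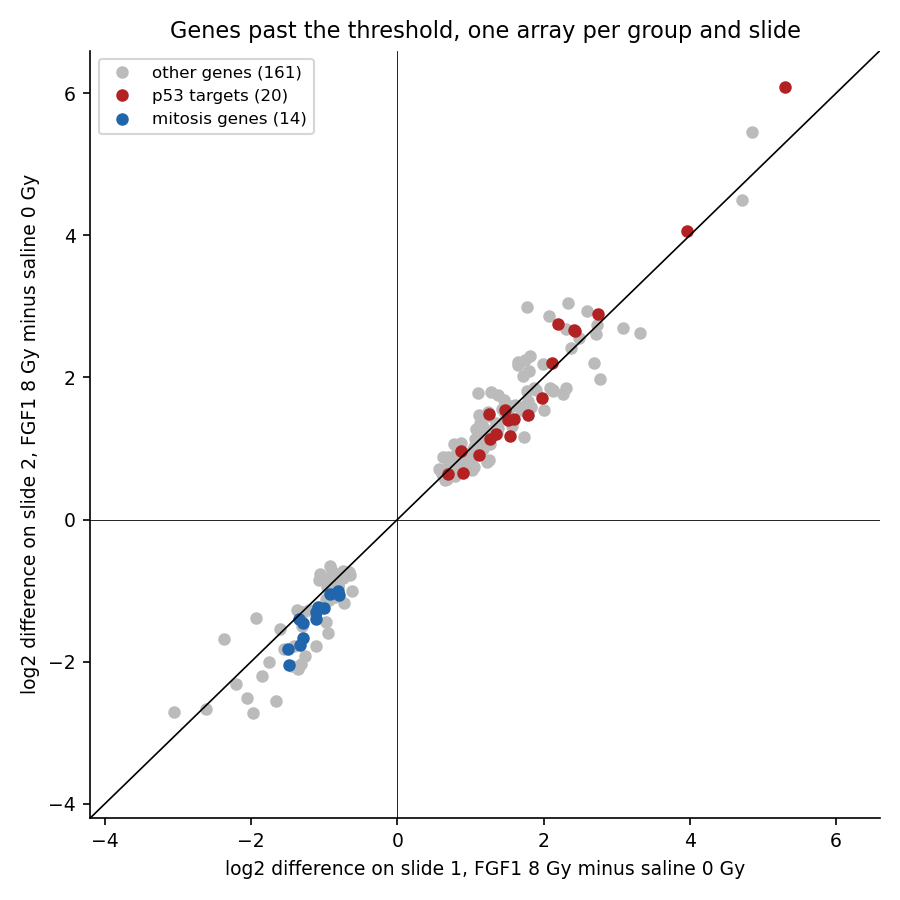
Log2 difference of FGF1 with 8 Gy minus saline with 0 Gy on slide 1 (horizontal) and slide 2 (vertical) for the 195 genes that passed, 1 array per group and slide, with the line of equality. The 20 p53 targets lie at the upper right and the 14 mitosis genes in the lower left, and no gene changes sign between slides.

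All 25 listed p53 targets of arrest and feedback were measured, meaning that some group had both arrays well above background. Of these 25, 14 rose and none fell, against 0.612% of all genes higher. Their median log2 fold change was 1.01, 1.11 on slide 1 and 0.91 on slide 2, against -0.05 over all genes. In 20 of the 25 both FGF1 arrays lay above both 0 Gy arrays, as in 22.9% of all genes. With the slide as a block 8 rose, and Plk2, Zmat3, Sesn2, Cdkn1a, Ercc5 and Ppm1d had adjusted p from 0.0604 to 0.0959. Probe positions are given in the mouse build mm9 of the array files, and their place in exons or UTRs was not analysed here.

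Gdf15, with its probe at chr8:73153293-73153352, had levels of 1.90 and 2.43 on the FGF1 plus 8 Gy arrays and -3.41 and -3.66 on the 0 Gy saline arrays. The gap of 5.70 ± 0.30 (adjusted p = 0.00531) was 5.31 on slide 1 and 6.09 on slide 2, many times the spread between replicates. Phlda3, which restrains the kinase Akt and was read at chr1:137665642-137665701, had 3.66 and 3.61 with FGF1 and 8 Gy and -0.30 and -0.46 at 0 Gy. It rose by 4.01 ± 0.22 (adjusted p = 0.00541), with no overlap. Psrc1, a spindle protein under p53 control, stood at -2.21 on both FGF1 arrays and at -4.95 and -5.11 on the 0 Gy arrays, a rise of 2.82 ± 0.14 (adjusted p = 0.00531). Gtse1, which shuttles p53 out of the nucleus, rose by 2.54 ± 0.21 and cyclin G1, Ccng1, by 2.54 ± 0.20, both with an adjusted p of 0.0148. In Ccng1 both FGF1 arrays, at 2.84 and 2.66, were above the 0 Gy arrays, at 0.42 and 0.00. Plk2, a stress-induced polo-like kinase, rose by 2.48 ± 0.29 (adjusted p = 0.0317).

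The negative regulators of p53 were among the genes that rose. Mdm2, the ubiquitin ligase that degrades p53, had 3.84 and 3.91 after FGF1 and 8 Gy and 2.57 and 2.77 at 0 Gy, 1.20 ± 0.14 apart (adjusted p = 0.0317). The phosphatase gene Ppm1d, which dephosphorylates p53, rose by 0.66 ± 0.09 (adjusted p = 0.0481). Cdkn1a, at chr17:29237377-29237436, encodes p21, the inhibitor of cyclin-dependent kinases, and had 3.81 and 3.82 in FGF1 plus 8 Gy tissue and 2.70 and 2.91 in 0 Gy saline tissue. It rose by 1.01 ± 0.12 (adjusted p = 0.0333), and by 2.42 on a second, dimmer probe. Eda2r, a death receptor for ectodysplasin, was not well above background on either 0 Gy array and was at least 3.34-fold higher after FGF1 and 8 Gy (adjusted p = 0.0214). For such genes the bound compares the bright group's mean with a detection limit on each dim array, namely its weakest detected probe or the gene's own signal if that was stronger. Zmat3, Sesn2, Trp53inp1 and Ercc5 also rose, by 0.78 to 1.37. A second probe gave 0.66 for Trp53inp1 and 0.14 for Ercc5.

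The other 11 members did not pass. Polk, a bypass polymerase, had the largest difference of these, 1.63 ± 0.31 (adjusted p = 0.0837). Gadd45a, Btg2 and Xpc, which serve in arrest and in repair, had 0.17, 0.01 and -0.02, with overlapping groups. Sesn1, a relative of Sesn2, had -0.37 ± 0.22 (adjusted p = 0.47). The p53 gene itself, Trp53, had -2.67 and -2.85 after FGF1 and 8 Gy and -2.80 and -2.37 at 0 Gy, a difference of -0.17 ± 0.17 (adjusted p = 0.676). The groups of Trp53 overlapped, and the array files place its probe on chromosome 17, whereas RefSeq places the gene on chromosome 11.

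**Figure D3:**
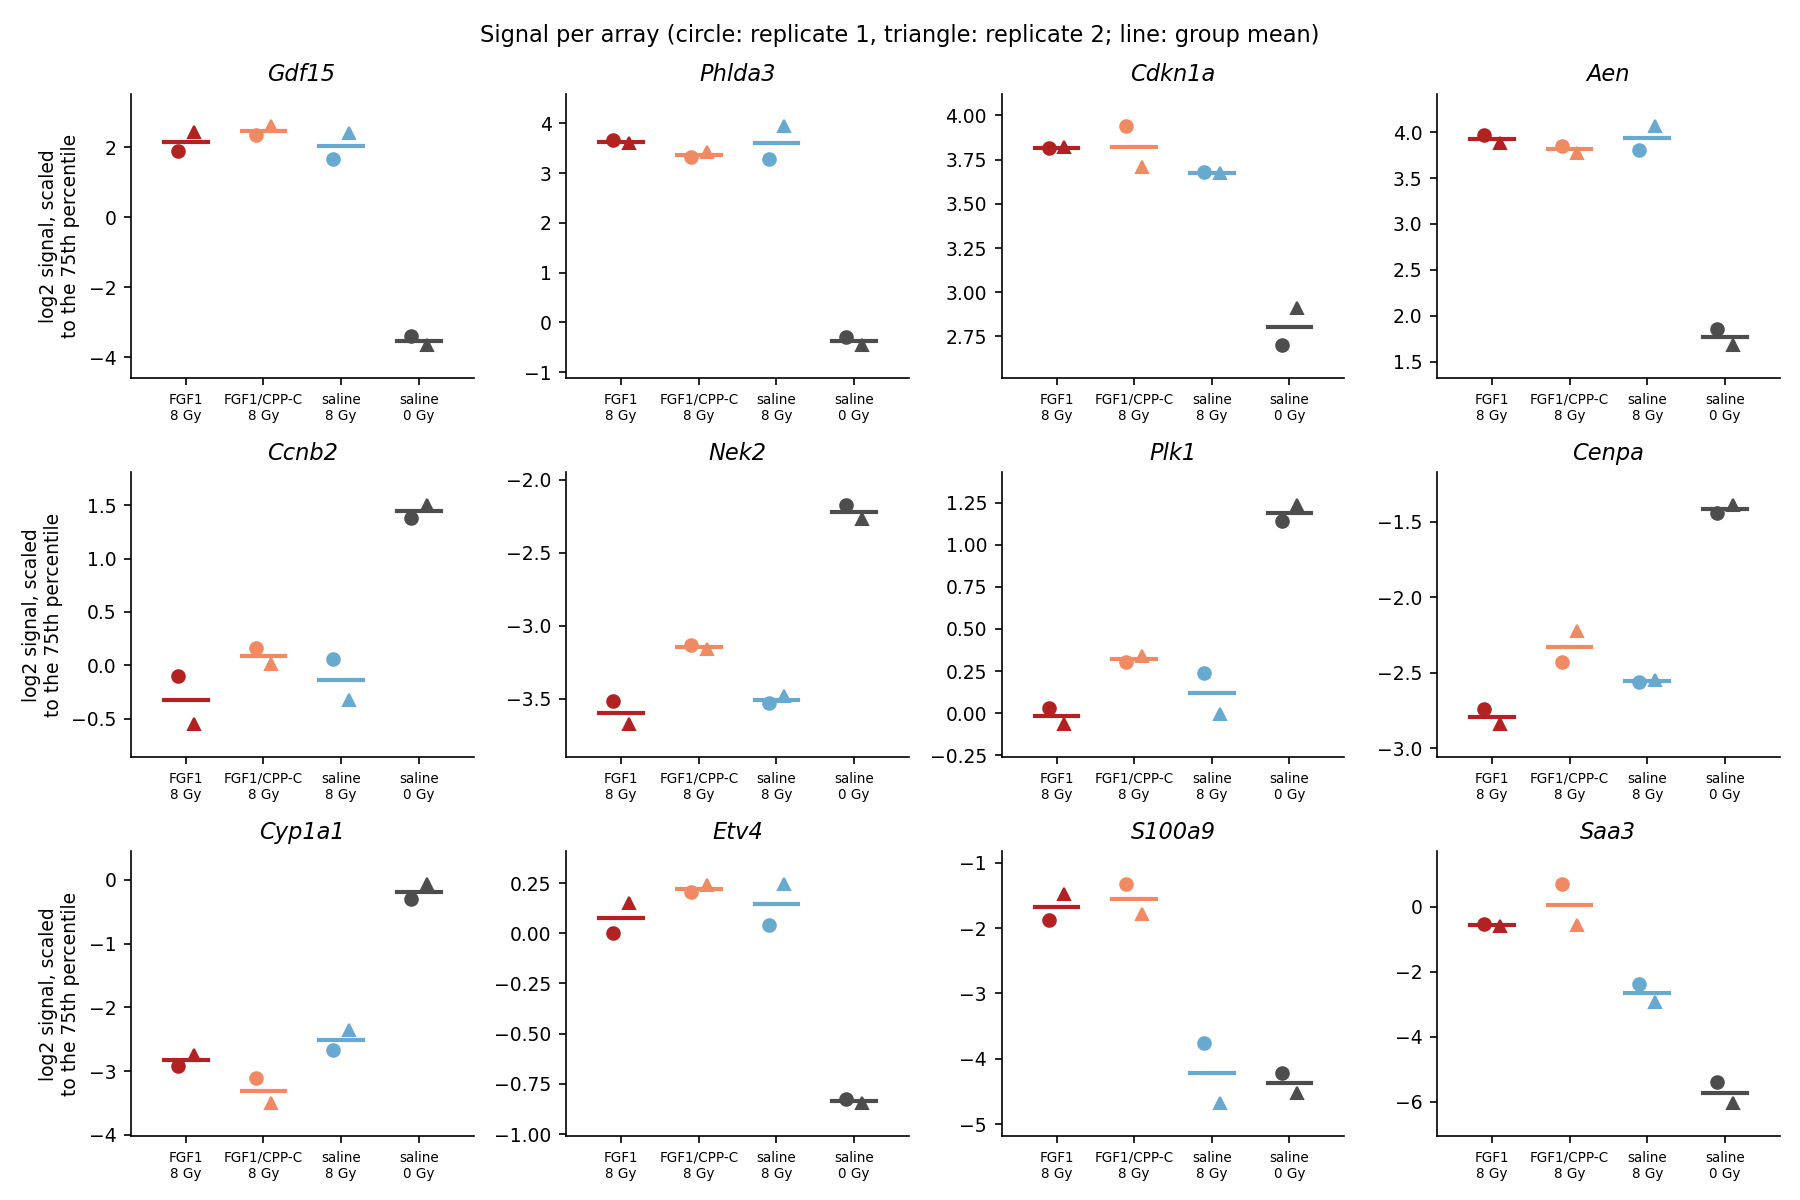
Log2 signal of 12 genes on each array, scaled to the 75th percentile of the array, in the 4 groups of 2 arrays. Circles are replicate 1, triangles replicate 2 and lines group means. The p53 targets in the top row lie higher and the mitosis genes in the middle row lower in all 3 irradiated groups than at 0 Gy, while S100a9 lies between -1.88 and -1.33 with either growth factor and 8 Gy and between -4.68 and -3.76 with saline and 8 Gy.

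Of 13 listed p53 targets of cell death 12 were measured. Of these 6 rose and none fell, with and without the slide as a block, against 0.612% of all genes higher without it. Their median was 1.09, 1.11 on slide 1 and 1.14 on slide 2. Aen, an exonuclease of apoptosis, had 3.97 and 3.88 with FGF1 and 8 Gy and 1.86 and 1.68 at 0 Gy, a rise of 2.16 ± 0.13 (adjusted p = 0.00597) that its second probe gave as 2.03. Bax, the pore former of the mitochondrial membrane, at chr7:52717122-52717181, had 2.86 and 2.83 on the FGF1 arrays and 1.35 and 1.43 on the 0 Gy arrays. Its gap of 1.45 ± 0.12 (adjusted p = 0.0148) exceeded the spread within both groups. The death receptor gene Tnfrsf10b rose by 1.63 ± 0.15, Siva1 by 1.51 ± 0.13, the PIDDosome scaffold Pidd1 by 1.51 ± 0.20 and Ei24 by 0.92 ± 0.08, with adjusted p from 0.0148 to 0.0399.

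Bbc3, which encodes the BH3-only protein PUMA, did not pass, although its groups did not overlap. It had 1.95 and 1.96 after FGF1 and 8 Gy and 0.59 and 0.80 at 0 Gy (1.26 ± 0.24, adjusted p = 0.0831). Pmaip1, the BH3-only protein NOXA, had 2.88 and 2.63 after FGF1 and 8 Gy and 2.32 and 2.88 at 0 Gy, so its groups overlapped. None of the 12 measured further members of the BCL2 family passed, and their median was 0.03. Among them the anti-apoptotic genes Bcl2l1 and Bcl2 had 0.52 and -0.38.

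The start regions of p53 targets were searched for the p53 half-site, named here without its letters, on both strands over 250 bases before and 50 after each gene start in RefSeq (GRCm38.p6). It was found in 6 of 21 matched promoters of arrest genes (28.6%), in 4 of 10 of cell death genes (40%) and in 8.37% of 27025 promoters. A match describes the letters and not a bound site, and p53 also binds in introns, outside this window. Aen at chr7:78895677-78895976 on the + strand and Bax at chr7:45466849-45467148 on the - strand are printed because both rose and both hold 1 match, in capitals.
Aen: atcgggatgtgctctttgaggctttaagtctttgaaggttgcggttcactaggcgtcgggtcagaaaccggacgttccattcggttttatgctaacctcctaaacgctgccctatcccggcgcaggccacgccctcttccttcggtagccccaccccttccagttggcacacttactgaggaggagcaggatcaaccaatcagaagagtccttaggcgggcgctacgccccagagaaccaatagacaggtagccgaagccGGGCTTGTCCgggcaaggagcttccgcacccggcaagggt
Bax: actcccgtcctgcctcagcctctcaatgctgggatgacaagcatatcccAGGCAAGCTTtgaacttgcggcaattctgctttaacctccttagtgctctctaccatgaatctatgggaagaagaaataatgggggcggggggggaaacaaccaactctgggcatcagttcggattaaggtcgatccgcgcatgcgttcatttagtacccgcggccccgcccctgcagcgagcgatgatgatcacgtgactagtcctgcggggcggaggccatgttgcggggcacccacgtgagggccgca
Counted from the gene start, the match began at 11 in Aen and at -201 in Bax. Gdf15, Phlda3 and Psrc1, the arrest genes with the smallest p, held no match in this window.

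Mitosis genes were the list with the most genes that fell. Of 34 listed 31 were measured, of which 14 fell and none rose, against 0.285% of all genes lower, and 30 were negative, as were 57.5% of all genes. Their median log2 fold change was -0.93 (slide 1, -0.73 and slide 2, -1.05), against -0.05 over all genes. In 29 of the 31 both FGF1 plus 8 Gy arrays lay below both 0 Gy saline arrays, as in 28.1% of all genes, and 10 fell with the slide as a block, where Tpx2, Ccna2, Birc5 and Mki67 had adjusted p from 0.0631 to 0.088.

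Ccnb2, cyclin B2, which activates Cdk1 for entry into mitosis, was read at chr9:70255671-70255730 and had -0.10 and -0.55 with FGF1 and 8 Gy and 1.39 and 1.50 at 0 Gy. It fell by 1.77 ± 0.20 (adjusted p = 0.031), or 3.41-fold, with no overlap. Its partner gene Ccnb1 stood at -1.87 on both FGF1 arrays and at -0.75 and -0.46 on the 0 Gy arrays, and fell by 1.26 ± 0.13 (adjusted p = 0.0242). Over the 3 probes of Ccnb1 the difference ran from -2.13 to -1.26. Plk1, the kinase of mitotic entry and exit, had 0.03 and -0.07 after FGF1 and 8 Gy and 1.14 and 1.23 at 0 Gy, 1.21 ± 0.11 lower (adjusted p = 0.0189).

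Genes of the spindle and centromere fell as well. Nek2, a centrosome kinase, at chr1:193656343-193656402, had -3.51 and -3.68 on the FGF1 arrays and -2.18 and -2.27 on the 0 Gy arrays, a fall of 1.37 ± 0.10 (adjusted p = 0.0136). Cenpa, the centromere histone, had -2.74 and -2.84 with FGF1 and 8 Gy and -1.44 and -1.39 at 0 Gy, and fell by 1.37 ± 0.11 (adjusted p = 0.0146). In both genes the gap was many times the distance between replicates. Aspm, which organises spindle poles, fell by 1.55 ± 0.15, the checkpoint kinase Bub1b by 1.48 ± 0.14 and Cdc20, activator of the anaphase-promoting complex, by 1.16 ± 0.13, with adjusted p of 0.0189, 0.0189 and 0.0302. Cdkn3, a phosphatase that acts on Cdk1 and Cdk2, fell by 1.66 ± 0.13 (adjusted p = 0.0148). Kif20a, Tpx2, Ccna2, Birc5 and the proliferation marker Mki67 fell by 0.91 to 1.12. Mki67 itself had 1.68 and 1.67 after FGF1 and 8 Gy and 2.50 and 2.70 at 0 Gy (adjusted p = 0.0388).

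Members that did not pass were mostly negative too. Cdk1, the mitotic kinase, had -0.74 ± 0.12 (adjusted p = 0.0654) and the kinase gene Aurka -0.91 ± 0.14 (adjusted p = 0.0565), both without overlap. Cdc25c, the phosphatase that activates Cdk1, had the lowest value, -2.57 ± 0.59 (adjusted p = 0.119), and was well above background on 1 of 2 FGF1 arrays. Cyclin F, Ccnf, at 0.06, was the 1 positive member. Outside the list, and chosen after their values were seen, the kinetochore gene Knl1 fell by 1.45, Prr11 by 1.40, the securin gene Pttg1 by 1.29 and the shugoshin gene Sgo2a by 1.27, with adjusted p from 0.0148 to 0.0496.

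In the start regions of the 27 mitosis genes matched in RefSeq, the CHR letters TTTGAA occurred in 20 (74.1%) and the CCAAT box, CCAAT, in 23 (85.2%), on either strand. Over all 27025 promoters the shares were 18.1% and 37.9%. The CCAAT box was also found in 14 of 21 promoters of p53 targets of arrest (66.7%) and in 4 of 10 of cell death (40%). The start regions of Nek2 at chr1:191821223-191821522, Cenpa at chr5:30666636-30666935 and Cdkn3 at chr14:46760291-46760590, all on the + strand, are printed because these genes fell with the smallest p. Capitals mark both motifs.
Nek2: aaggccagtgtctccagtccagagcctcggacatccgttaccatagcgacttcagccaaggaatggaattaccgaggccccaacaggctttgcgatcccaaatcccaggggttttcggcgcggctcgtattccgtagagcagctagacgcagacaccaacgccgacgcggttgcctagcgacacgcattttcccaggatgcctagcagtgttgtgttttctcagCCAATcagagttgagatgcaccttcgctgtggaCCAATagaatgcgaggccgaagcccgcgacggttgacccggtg
Cenpa: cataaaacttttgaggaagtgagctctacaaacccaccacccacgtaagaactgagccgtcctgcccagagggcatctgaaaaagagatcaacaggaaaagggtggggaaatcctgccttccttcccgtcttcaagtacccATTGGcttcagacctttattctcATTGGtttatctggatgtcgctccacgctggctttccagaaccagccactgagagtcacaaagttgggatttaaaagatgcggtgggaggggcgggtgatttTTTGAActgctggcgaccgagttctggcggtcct
Cdkn3: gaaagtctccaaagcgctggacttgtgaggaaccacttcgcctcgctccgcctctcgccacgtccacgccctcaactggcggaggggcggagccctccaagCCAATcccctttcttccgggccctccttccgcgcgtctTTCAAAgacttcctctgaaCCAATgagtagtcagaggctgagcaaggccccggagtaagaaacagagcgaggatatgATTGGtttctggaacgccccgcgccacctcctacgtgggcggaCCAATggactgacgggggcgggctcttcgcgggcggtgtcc
Counted from the gene start, CCAAT boxes began at -26 and 8 in Nek2, at -109 and -86 in Cenpa and at -149, -92, -34 and 10 in Cdkn3. The CHR letters began at 17 in Cenpa and at -111 in Cdkn3, and were not in the window of Nek2. The letters found are a description of these windows, and binding was not measured.

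Of 31 measured genes of DNA replication and nucleotide supply, 1 rose and none fell, and the median was 0.06. Rrm2, the small subunit of ribonucleotide reductase, had 1.46 and 1.57 in FGF1 plus 8 Gy tissue and 0.39 and 0.57 in 0 Gy saline tissue, a rise of 1.04 ± 0.14 (adjusted p = 0.0411, 0.0837 with the slide as a block). The licensing factors Cdc6 and Cdt1 had 0.67 and 0.65, without overlap and without passing (adjusted p = 0.0909 and 0.0741). Pcna, the sliding clamp, had 2.87 and 3.1 with FGF1 and 8 Gy and 2.47 on both 0 Gy arrays (0.52 ± 0.12, adjusted p = 0.14, in a fit without 1 saline plus 8 Gy array that gave no value). The array files place the probes of Rrm2 and Pcna on chromosome 19, whereas RefSeq has the genes on chromosomes 12 and 2. Among the 148 genes that passed with both positions known, 6 had such a probe, including Aen and Siva1. None of 24 measured genes of double-strand break repair passed, with a median of 0.12.

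**Figure D4:**
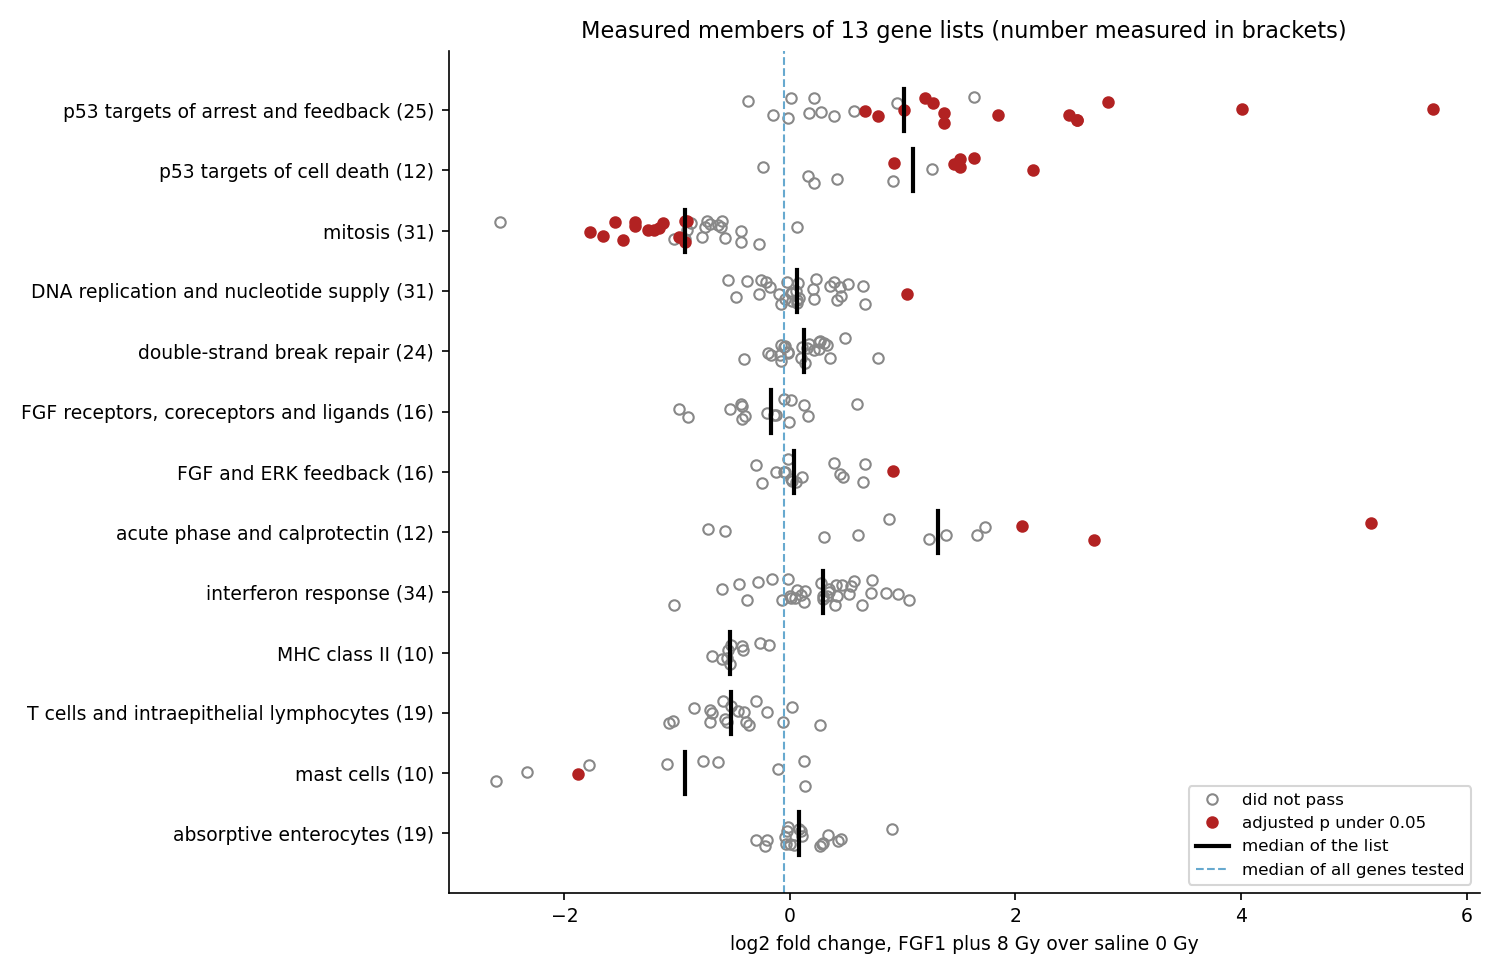
Log2 fold change of FGF1 with 8 Gy over saline with 0 Gy (horizontal) for the measured members of 13 lists, 1 point a gene, filled where it passed an adjusted p under 0.05, with black bars at list medians and a dashed line at the median of all genes. The p53 lists lie to the right, with medians of 1.01 and 1.09, mitosis genes to the left at -0.93, and FGF pathway lists near 0.

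The FGF pathway itself showed few differences from 0 Gy saline. None of 16 measured FGF receptors, coreceptors and ligands passed, with a median of -0.17 and 12 negative. Among receptors the differences were -0.14 in Fgfr1, -0.21 in Fgfr2, -0.12 in Fgfr3 and -0.01 in Fgfr4. The endogenous Fgf1 transcript had 0.04 and 0.14 on the FGF1 plus 8 Gy arrays and 0.38 and 0.58 on the 0 Gy saline arrays, lower without overlap (-0.40 ± 0.12, adjusted p = 0.203). In saline with 8 Gy it was -0.48 against 0 Gy. Injected protein is not read by these probes. Fgf15, the ileal hormone that restrains bile acid synthesis, had -3.69 and -5.35 after FGF1 and 8 Gy and -2.98 and -4.10 at 0 Gy, overlapping (-0.98 ± 0.60, adjusted p = 0.482).

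Of 16 measured feedback genes of FGF and ERK signalling, 1 rose and the median was 0.04. Etv4, an ETS factor read at chr11:101631057-101631116, had 0.00 and 0.15 with FGF1 and 8 Gy and -0.82 and -0.85 at 0 Gy, a rise of 0.91 ± 0.11 (adjusted p = 0.0333, 0.0574 with the slide as a block). It was 0.98 higher in saline with 8 Gy as well, and FGF1 against saline at 8 Gy differed by -0.07 ± 0.11. Dusp6, the phosphatase of ERK, had 3.45 and 3.68 on the FGF1 arrays and 2.66 and 3.14 on the 0 Gy arrays, higher without overlap but not past the threshold (0.67 ± 0.29, adjusted p = 0.333). The ETS factor gene Etv5, whose probe the array files place on chromosome 10 and RefSeq on chromosome 16, had 0.02 ± 0.31, and the feedback inhibitor gene Spry2 had -0.25. None of 20 immediate early genes passed, with a median of 0.09. Egr1, an early target of ERK, had -0.25 and 0.58 after FGF1 and 8 Gy and -0.48 and -0.63 at 0 Gy (0.72 ± 0.51, adjusted p = 0.541), Myc had 0.56 ± 0.15 and Fos 0.08 ± 0.34.

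Acute-phase and calprotectin genes, which serve early innate defence, had a high median that depended on how dim signals were treated. Of 16 listed 12 were measured, of which 3 rose and none fell, against 0.612% of all genes higher. Their median log2 fold change was 1.31 (1.28 by slide 1, 1.23 by slide 2), 0.74 with no filter on dim probes and 0.85 with normexp, and in 10 of 12 the FGF1 arrays lay above the 0 Gy arrays, against 22.9% of all genes. Saa3, an inducible serum amyloid at chr7:53970389-53970448, had -0.55 and -0.59 in FGF1 plus 8 Gy tissue and -5.39 and -6.04 in 0 Gy saline tissue, where it was well above background on 1 of 2 arrays. It rose by 5.15 ± 0.45 (adjusted p = 0.0162), with no overlap.

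The calprotectin subunits S100a9 and S100a8, abundant in neutrophils, rose together. S100a9, at chr3:90496573-90496632, had -1.88 and -1.47 with FGF1 and 8 Gy and -4.22 and -4.53 at 0 Gy, a gap of 2.70 ± 0.34 (adjusted p = 0.0388, 0.0546 with the slide as a block). S100a8 had -4.06 and -3.85 with FGF1 and 8 Gy and -5.88 and -6.15 at 0 Gy, of which 1 array was well above background, and rose by 2.06 ± 0.26 (adjusted p = 0.0388). Of the 7 measured neutrophil markers these were the 2 that rose. The others had -0.23 to 0.22, among them the granule genes Mpo at 0.22 and Elane at -0.19, and the part of neutrophil number was not tested. Haptoglobin, Hp, at 1.73, the cytokine feedback gene Socs3, at 1.66, and the siderophore-binding lipocalin Lcn2, at 1.38, did not pass (adjusted p = 0.0745, 0.105 and 0.0889), while Lcn2 passed once the slide was a block (adjusted p = 0.0442).

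Interferon response genes gave no call among 34 measured, with a median of 0.30 and 25 positive. In 20 of them the FGF1 arrays lay above the 0 Gy arrays, as in 22.9% of all genes. Mx1, an antiviral GTPase, had -1.02 and -0.98 after FGF1 and 8 Gy and -1.87 and -2.06 at 0 Gy (0.96 ± 0.16, adjusted p = 0.0732). Oas2, a sensor of double-stranded RNA, had 0.72, and the chemokine gene Cxcl10 had -0.60. All 10 MHC class II genes, which present antigen to helper T cells, were negative with a median of -0.53 and none passed. Cd74, the invariant chain, had 4.43 and 4.22 after FGF1 and 8 Gy and 5.01 and 4.85 at 0 Gy (-0.60, adjusted p = 0.266). T cell and intraepithelial lymphocyte markers were negative in 17 of 19 measured, with a median of -0.52, -0.31 on slide 1 and -0.65 on slide 2, and none passing. Xcl1 had -1.07, Thy1 -0.71 and Cd3e -0.41, and the part of cell number was not tested. B cell genes had a median of -0.36 and macrophage genes one of 0.10, with none passing.

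In the TNF superfamily 2 of 29 measured genes rose, against 0.612% of all genes, and none fell, with a median of -0.22. Tnfrsf18, the receptor GITR of T cells, had 0.13 and 0.21 after FGF1 and 8 Gy and -1.86 and -1.98 at 0 Gy, a rise of 2.09 ± 0.10 (adjusted p = 0.00531). Tnfsf4, the costimulatory OX40 ligand, had -4.22 and -4.21 with FGF1 and 8 Gy, was at the floor on both 0 Gy arrays and was at least 6.19-fold higher (adjusted p = 0.0136). Both stood clear of the 0 Gy arrays. Sele encodes E-selectin, which tethers leukocytes to endothelium, and went the other way, at the floor on both FGF1 arrays and at -4.58 and -5.27 on the 0 Gy arrays. It was at least 4.08-fold lower (adjusted p = 0.0272), the 1 call among 8 adhesion genes.

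Single genes of several other pathways changed. Cyp1a1, the xenobiotic-oxidising enzyme that the aryl hydrocarbon receptor induces, was read at chr9:57551535-57551594 and had -2.92 and -2.74 in FGF1 plus 8 Gy tissue and -0.31 and -0.07 in 0 Gy saline tissue. It fell by 2.64 ± 0.19 (adjusted p = 0.0136), or 6.23-fold, and was the 1 call among 9 measured targets of the receptor. The related Cyp1b1 had 0.67 and the receptor repressor Ahrr -0.17. Sfrp5, a secreted Wnt antagonist at chr19:42272509-42272568, had -2.76 and -2.74 with FGF1 and 8 Gy and -0.70 and -0.23 at 0 Gy, and fell by 2.28 ± 0.18 (adjusted p = 0.0146). Frat2, which binds the kinase GSK3 in the Wnt pathway, had -1.34 and -1.39 with FGF1 and 8 Gy and 0.08 and 0.40 at 0 Gy. It fell by 1.60 ± 0.14 (adjusted p = 0.015), and its second probe gave -0.71. These were 2 of 19 measured genes on a list of Wnt antagonists and feedback genes, of which 17 were negative with a median of -0.29. The list also holds Wnt ligands and R-spondins, so its median does not describe antagonists alone.

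Fkbp5, a chaperone partner of the glucocorticoid receptor, had 3.32 and 2.75 after FGF1 and 8 Gy and 0.00 and 0.13 at 0 Gy, and rose by 2.97 ± 0.32 (adjusted p = 0.0279). Pdk4, the kinase that shuts off pyruvate dehydrogenase, is on the same glucocorticoid list and fell by 1.73 ± 0.21 (adjusted p = 0.0333, 0.068 with the slide as a block). The other 12 measured members of that list did not pass, and its median was -0.10. Krt15, a keratin of stem-like epithelial cells, had -2.27 and -1.80 with FGF1 and 8 Gy and -4.05 and -4.80 at 0 Gy, and rose by 2.39 ± 0.28 (adjusted p = 0.0317, 0.0631 with the slide as a block). It was the 1 call among 15 measured genes of crypt regeneration, whose median was 0.19. Of 17 clock genes Tef, a PAR bZIP transcription factor, rose by 0.90, and of 25 ribosome biogenesis genes Utp20, a processome subunit, rose by 0.90. Of 23 genes of cholesterol synthesis Fdps, the farnesyl diphosphate synthase, fell by 0.72, and 19 were negative. The probe of Fdps is placed on chromosome 10 by the array files and on chromosome 3 by RefSeq. With the slide as a block Tef, Utp20 and Fdps did not pass (adjusted p = 0.0546, 0.0546 and 0.0795).

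Among the remaining genes with an established symbol, the largest rises included the phospholipase gene Plcd4, the GPI-anchored protein gene Gml and Inka2, an inhibitor of the kinase Pak4. Plcd4 had -4.35 and -4.01 after FGF1 and 8 Gy and was at the floor on both 0 Gy arrays, at least 6.34-fold higher on this probe (adjusted p = 0.00531), with a log2 difference of 1.25 on its second probe. Gml had 1.00 and 1.45 with FGF1 and 8 Gy and -1.71 and -1.16 at 0 Gy, and rose by 2.66 ± 0.31 (adjusted p = 0.0317, 0.0634 with the slide as a block). Inka2 rose by 2.52 ± 0.31 (adjusted p = 0.0368, 0.0674 with the block). The largest remaining falls among genes with an established symbol were those of the small nucleolar RNA gene Rnu3b1, by 1.75, the kallikrein gene Klk1b27, by 1.68, and Ppfia3, by 1.57, with adjusted p from 0.0411 to 0.0498. Klk1b27 was well above background on 1 of 2 FGF1 arrays, and a second probe of Ppfia3 gave -0.66. Acvr1c, a receptor of activins and nodal, was at least 3.02-fold lower (adjusted p = 0.0302). These 4 genes missed the threshold when the slide was a block, at 0.0575 to 0.0847. Chosen after their values were seen, Ddias, an apoptosis suppressor, rose by 2.45, the galactosyltransferase gene B3galt5 by 2.47 and the metalloproteinase inhibitor gene Timp1 by 1.92.

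List medians of epithelial cell type markers lay near the median of all genes. None of the 19 measured absorptive enterocyte genes passed, with a median of 0.08, and Alpi, the brush border phosphatase, had 7.00 and 7.18 after FGF1 and 8 Gy and 7.08 and 7.16 at 0 Gy. Medians were 0.04 for goblet cells, -0.01 for Paneth cells, 0.03 for enteroendocrine cells and -0.07 for tuft cells, with no member past the threshold. The Paneth median was 0.28 on slide 1 and -0.25 on slide 2, and 5 of 8 measured members were negative. On that list Reg3g and Reg3b had 1.00 and 1.14, higher without overlap (adjusted p = 0.26 and 0.362). None of 20 crypt base stem cell genes passed, with a median of -0.19. Lgr5, a receptor of stem cells, had -3.58 and -3.01 after FGF1 and 8 Gy and -3.24 and -3.07 at 0 Gy, overlapping. Olfm4 had 0.11 and -0.74 after FGF1 and 8 Gy and 0.34 and 0.57 at 0 Gy (-0.77 ± 0.40, adjusted p = 0.412).

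Some markers of cells beneath the epithelium lay lower, while medians were -0.04 for endothelium, -0.13 for enteric neurons and glia and 0.00 for plasma cells. Mast cell genes had a median of -0.93, -0.88 on slide 1 and -1.28 on slide 2, and 1 of 10 measured fell. With no filter on dim probes the median was -0.11. Mcpt4, a chymase of mast cell granules, had -1.49 and -1.72 with FGF1 and 8 Gy and 0.27 and 0.29 at 0 Gy, and fell by 1.88 ± 0.24 (adjusted p = 0.0389, 0.0756 with the slide as a block). Kit, the growth factor receptor of mast cells, had -0.11. Fibroblast and collagen genes had a median of -0.53 with 10 of 11 negative, and smooth muscle genes one of -0.30 with 8 of 10 negative, with no call in either list. The part of cell number in these values was not tested.

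At the same dose, no gene passed the limma test between FGF1 and saline. Of 21744 genes, 0 passed (0%). An unadjusted p under 0.05 was reached by 382 genes, 219 higher and 163 lower with FGF1. That is fewer than the 1087 expected by chance at this cut, but the count rose when either saline plus 8 Gy array was left out. These 2 arrays had the lowest r between replicates of the 4 groups, 0.982, and antrum medians of -4.30 and 1.95. Their spread enters the test, so the count does not measure how alike the groups are. The 95% interval of a difference reached 0.37 on the log2 scale to either side for the median gene, and a p that misses the threshold does not show equal expression. In Gdf15 the difference was 0.12 with an interval from -0.60 to 0.84, in Cdkn1a 0.14 from -0.15 to 0.44 and in Bax 0.02 from -0.27 to 0.30. For mitosis genes it was -0.19 from -0.67 to 0.29 in Ccnb2 and -0.09 from -0.33 to 0.15 in Nek2. In Dusp6, the readout of ERK, it was 0.34 from -0.38 to 1.06.

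The contrast of saline with 8 Gy against saline with 0 Gy shares the 0 Gy arrays, so only values are set side by side. Gdf15 was 5.70 higher with FGF1 and 8 Gy and 5.58 higher with saline and 8 Gy, Phlda3 4.01 and 3.99, and Aen 2.16 and 2.17. Ccnb2 was at -1.77 with FGF1 and 8 Gy and at -1.58 with saline and 8 Gy, Cyp1a1 at -2.64 and -2.33 and Sfrp5 at -2.28 and -2.11. The list medians were 1.01 and 1.10 for p53 targets of arrest, and -0.93 and -0.80 for mitosis genes. In the saline contrast 89 of 21734 genes passed (0.409%).

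Against 0 Gy saline, the median of acute-phase genes was 1.31 with FGF1 and 8 Gy and 0.28 with saline and 8 Gy, and the median of the direct differences between FGF1 and saline at 8 Gy was 0.35. S100a9 had -1.88 and -1.47 on the FGF1 plus 8 Gy arrays and -3.76 and -4.68 on the saline plus 8 Gy arrays, with no overlap. Its difference was 2.54 with a 95% interval from 1.71 to 3.37, that of S100a8 2.37 from 1.73 to 3.00 and that of Saa3 2.09 from 1.00 to 3.18. S100a8 was well above background on 1 of 2 saline plus 8 Gy arrays. Saline plus 8 Gy replicate 2, high in antrum and acinar transcripts, held the lower value of all 3 genes. Without it their differences were 2.08 in S100a9, 2.14 in S100a8 and 1.82 in Saa3. Without the 3 arrays with high antrum transcripts, 1 array each of FGF1 and of saline with 8 Gy was left, so neither group had a spread of its own. The differences were then 2.28, 2.25 and 1.80. The median of the acute-phase list was then 0.13. None passed adjustment over all genes (adjusted p = 1, 0.697 and 1). Interferon genes had a median of 0.38 between FGF1 and saline at 8 Gy, and MHC class II genes one of 0.09. Of genes chosen after their values were seen, B3galt5 (1.59, interval 0.97 to 2.21), Gml (1.14, 0.38 to 1.89) and Timp1 (0.92, 0.48 to 1.36), were also higher with FGF1 on the unadjusted scale and did not pass.

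**Figure D5:**
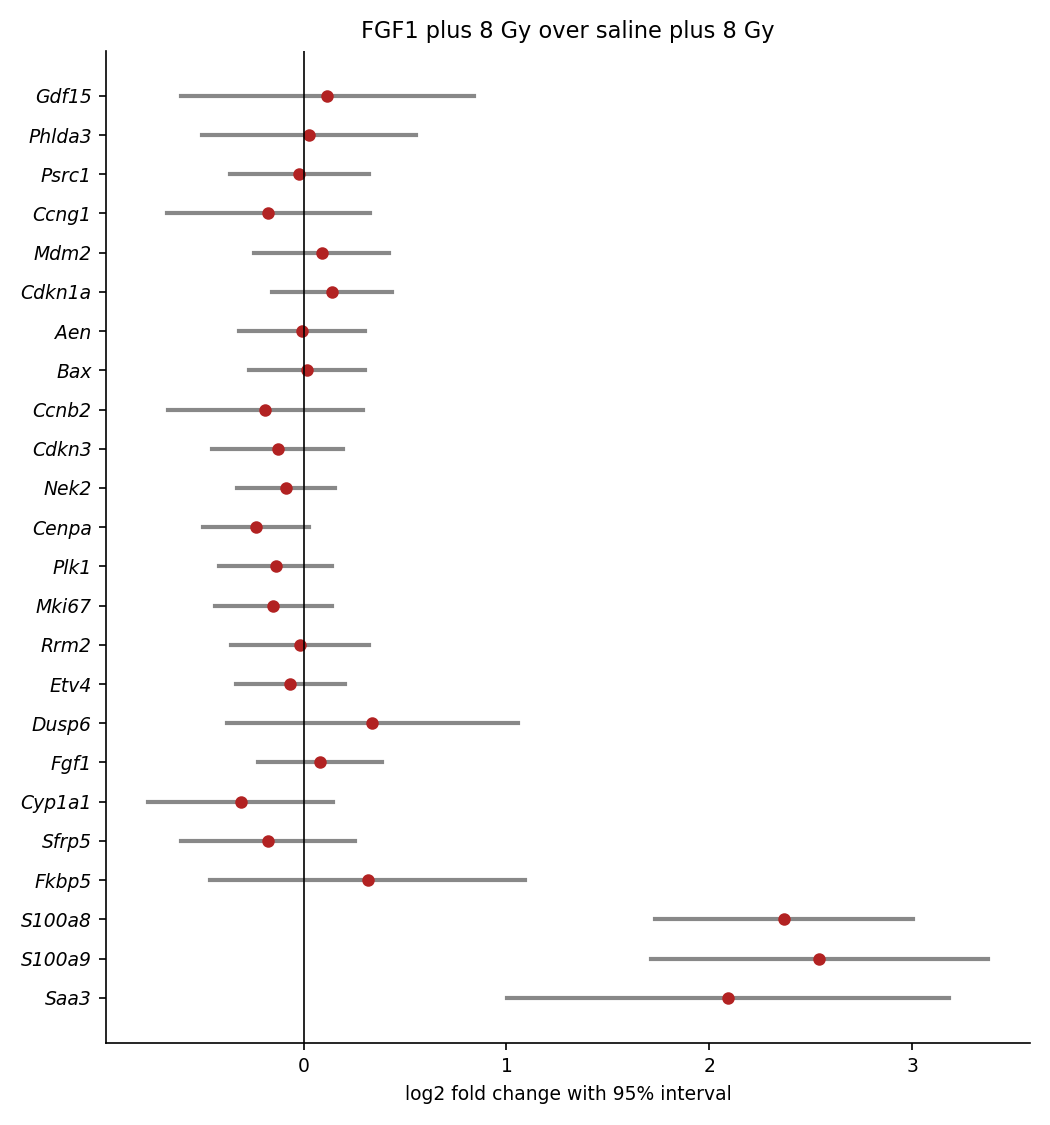
Log2 fold change of FGF1 with 8 Gy over saline with 8 Gy for 24 genes (points), with 95% intervals from the limma fit (lines) and 0 marked. The p53, mitosis and FGF pathway genes have intervals that span 0, and S100a8, S100a9 and Saa3 lie above it, none past the adjusted threshold.

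Against 0 Gy saline, FGF1/CPP-C with 8 Gy gave 438 genes past the threshold (2.01%), with p53 targets of arrest at a median of 1.02, 13 of them higher (1.24% of all genes), and Gdf15 at 6.01. Mitosis genes had a median of -0.36 for FGF1 against FGF1/CPP-C, none of them past the threshold, with Nek2 at -0.45 ± 0.10 (adjusted p = 0.294). S100a9 differed by -0.12 ± 0.34 between FGF1 and FGF1/CPP-C, and Saa3 by -0.62 ± 0.45. T cell genes had a median of -0.43 and MHC class II genes one of -0.56 in the same comparison, again with none passing. Of 21757 genes, 2 passed (0.00919%), the stomach mucosa genes Gkn3 and Tff2. B3galt5 came close, 3.34 ± 0.25 higher with FGF1 (adjusted p = 0.06).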

How the data were processed

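RNA from small intestine was read on 8 Agilent 1-colour arrays, 2 in each of 4 groups taken from the labels. The deposited intensities are spot signals that Agilent Feature Extraction 9.5.3.1 background-subtracted, per the file headers. The labels' protocols give Cy3 labelling by the Low Input Quick Amp method. The deposited value table of the series holds the same intensity values, linear and uncentred, with array medians of 674 to 849, and served as an alternative. After 1377 control spots were set aside, 43020 spots remained, of which outliers were left out and spots of a probe averaged. Each array was divided by its 75th percentile, floored at -6.95 on the log2 scale, and log2 was taken. Names came from accessions (28330 of 39429 probes) or symbols (2378) in a RefSeq table of GRCm38.p6, and 8721 probes kept the file's name. Probes well above background on both arrays of a group were kept, 27469 in all, and the brightest stood for its gene.

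Group means over all 8 arrays were fitted with limma 3.58.1 in R 4.3.3, with Benjamini-Hochberg adjustment over all genes and an adjusted p threshold of 0.05. Values after ± are standard errors of log2 differences. With 2 arrays against 2, the smallest two-sided exact permutation p for a single gene is 0.333, and the number of arrays limits the precision. The fit was tested on simulated data with known changes. The slide was fitted as a block and values were computed within each slide.

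The members and gene lists were chosen with earlier results of these data known. The naming rule took up to 12 genes per direction with the largest change among those past the threshold that had an established symbol (141 of 195), up to 4 members of each list by smallest p, and a set of genes of p53, mitosis, FGF and stem cells. Any other gene given with values was chosen after its values were seen. Alternatives were other normalisations, filters, probe summaries, moderation, fits and arrays left out.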

Additional observations from a re-analysis of the deposited data

Results flagged for a closer look

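The stomach mucosa genes Gkn3 and Tff2 separated FGF1 with 8 Gy from FGF1/CPP-C with 8 Gy in a test of the difference itself. Gkn3, a gastrokine, had 8.17 and 7.20 on the FGF1 plus 8 Gy arrays and -1.66 and -1.82 on the FGF1/CPP-C plus 8 Gy arrays, a difference of 9.43 ± 0.40 (limma adjusted p = 0.00408). Tff2, a trefoil peptide of mucous neck cells and Brunner glands, had 8.64 and 8.15 with FGF1 and -6.02 and -6.95 with FGF1/CPP-C, where it was not well above background on either array. It was at least 29079-fold higher with FGF1 (limma adjusted p = 0.000214), and the fitted log2 difference of 14.88 takes the dim signals at face value. The 0 Gy saline arrays held both transcripts, Tff2 at 8.85 and 8.99 and Gkn3 at 8.37 and 8.23. So did the saline plus 8 Gy arrays, with Tff2 at 8.16 and 8.64 and Gkn3 at 7.18 and 8.12. Low levels were thus found in the FGF1/CPP-C group alone. Markers of stomach antrum as a list had a median level of 0.02 and -4.75 on the FGF1 arrays and -5.58 and -6.29 on the FGF1/CPP-C arrays. The part of the sampled gut segment was not tested.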

How the results depend on the processing

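The replicate number was shared across groups and each number lay on 1 slide, but deviations from group means correlated at 0.536 between FGF1 with 8 Gy and saline with 0 Gy and at -0.364 between FGF1 and saline at 8 Gy, so the numbers were not taken as pairs. With the replicate block 81 genes passed against 0 Gy saline, 0 against saline with 8 Gy and 2 against FGF1/CPP-C. All of the 195 genes that could be tested kept their direction in every alternative. Against 0 Gy saline the count was 311 with normexp (161 higher, 150 lower), 374 with trend and robust moderation, 69 with the series' value table, 5 with the 2 groups alone, and 0 without the 3 arrays with high antrum transcripts or without both slide 1 arrays of the 2 groups. Leaving out 1 array gave 0 to 172. Against saline with 8 Gy, averaging the probes of each gene gave 2, and 0 to 1 when 1 array was left out. Against FGF1/CPP-C, 13 passed with quantile normalisation, 10 with normexp, 9 with no filter or with the mean of probes, 8 with trend and robust moderation, 1 with genes well above background on all arrays, 0 with the value table, the 2 groups alone or either added setting, and 2 to 5 with 1 array left out.

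Genes that did not pass changed sign in some settings, against 0 Gy saline. With quantile normalisation Zg16 came to 0.022, Actb to 0.085 and Fgfr4 to 0.0059. Apoh came to -0.0027 with normexp and Etv5 to -0.0066 with the value table. Without the 3 antrum arrays or both slide 1 arrays, Pnliprp2 came to 0.11, Pmaip1 to -0.25, Lgr5 to 0.067 and Fos to -0.090. Over the fits with 1 array left out, Pmaip1 ran from -0.12 to 0.44, Trp53 from -0.39 to 0.041, Lgr5 from -0.42 to 0.15, Fgfr4 from -0.079 to 0.067, Etv5 from -0.16 to 0.19 and Fos from -0.28 to 0.45. The causes were not tested. Dim genes rest on signals near background, and 12 of the 195 were not well above background at 0 Gy.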

Other observations

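Several lists that could hold a response to growth factor or stress had no member past the threshold against 0 Gy saline. Of 13 ligands and receptors of the EGF receptor family none passed, and the median was 0.07. Areg, the ligand amphiregulin, had 1.45 and 1.09 with FGF1 and 8 Gy and -0.25 and 0.30 at 0 Gy, higher without overlap (1.25 ± 0.26, adjusted p = 0.0968). Notch pathway and secretory fate genes, 17 measured, had a median of 0.17. Heat shock genes had a median of -0.24 and NRF2 targets, which serve antioxidant defence, one of -0.18, over 15 measured genes each. The 12 claudin and tight junction genes, which seal the epithelium, had a median of 0.01.

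Regional genes of the gut showed no call among 16 measured. Pdx1, a duodenal transcription factor, had 1.75 and 1.94 with FGF1 and 8 Gy and 1.23 and 1.27 at 0 Gy. Fabp6, the bile acid carrier of the ileum, had -3.34 and -3.50 with FGF1 and 8 Gy and -3.35 and -2.96 at 0 Gy, so its groups overlapped.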
